A study of Mus musculus with 6 samples.

Results

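The genes described here encode the nuclear-encoded subunits of the mitochondrial respiratory chain and of the ATP synthase, complexes I to V, in the colon of stressed and resting mice. They were chosen by gene symbol: names that begin with Nduf, a letter a, b, c, s or v and a digit, the 4 Sdh genes, names that begin with Uqcr, Cyc1, Cox followed by a digit from 4 to 8, and names that begin with Atp5. Assembly factors, symbols marked as pseudogenes and genes without a count in any library were left out. Of 43432 gene identifiers 87 met the rule, 38 in complex I, 4 in complex II, 9 in complex III, 19 in complex IV and 17 in complex V. The isoform genes Cox7b2 and Cox8c had 0 counts in all 6 libraries and so are not among the 87. A name is not a function, and 4 of the 87 (Cox6c2, Ndufb4c, Ndufa11b and Ndufs6b) are annotated as processed pseudogenes although their symbols do not say so. Ndufa4 and Ndufa4l2 were counted with complex IV, where the Ndufa4 protein is found.

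The respiratory chain sits in the inner mitochondrial membrane. Complexes I and II feed electrons from NADH and succinate to ubiquinone, complex III passes them to cytochrome c and complex IV to oxygen, while complexes I, III and IV pump protons whose return through complex V drives ATP synthesis. Complexes I, III, IV and V also hold subunits encoded by mitochondrial DNA, whereas all of complex II is nuclear-encoded. In the colon, absorptive epithelial cells oxidise butyrate from bacterial fermentation in their mitochondria and are rich in this machinery, and smooth muscle also depends on it.

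RNA-seq was carried out on colon tissue of wild-type mice, 3 stressed (mice 10, 11 and 13) and 3 resting (mice 15, 17 and 19), with 1 library per mouse. Stressed mice had 30 min of restraint, in which a rodent is held in a narrow enclosure, on 3 days, and the colon was taken directly after the last episode. The same restraint note also stands on the labels of resting mice, and the grouping therefore relies on the title and treatment label. No age, sex or strain is given in the sources used here. All samples are whole colon tissue, so that fewer cells of a type and less RNA per cell cannot be told apart in any value below. Values are CPM, which are counts relative to the library total on the usual scale, adjusted by TMM factors, and are listed in the order of the mouse numbers above.

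The libraries held 16425525 to 19819267 counts, of which the subunit genes took 1.67% to 1.81% in stressed mice and 1.58% to 1.74% in resting mice. Epithelial markers of the colon (Epcam, Krt20, Car1, Aqp8 and 8 others) were detected in every library and summed to 24576 to 26327 CPM in stressed mice and 19231 to 24454 CPM in resting mice, with 9 of 12 higher, 3 lower and none past the threshold. Car1 alone was at 12607, 11551 and 13006 CPM in stressed mice, against 9368, 7432 and 10314 CPM in resting mice. Its log2 fold change was 0.455, whereas the median of the 12 was 0.039 and Aqp8 had -1.06. The gap between the summed groups therefore does not describe the markers as a set. Over all 16119 genes tested, 5 passed an adjusted p under 0.05 by edgeR's quasi-likelihood test, or 0.0310%. The median log2 fold change over all genes tested, stressed over resting, was -0.0033.

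No subunit gene changed by that threshold. Of the 87 genes 82 had enough counts to be tested, and the smallest adjusted p among them was 0.581, for Ndufa11. Small differences pointed mostly one way: 73 of the 82 (89.0%) had a log2 fold change above 0, against 49.0% of all genes tested, and 9 were below 0. The median log2 fold change was 0.081, a difference of a few percent in level, and the 95% intervals of 79 genes lay wholly within a 1.5-fold change in either direction. An unadjusted p under 0.05 was reached by 7 genes, or 8.54%, all higher in stressed mice, against 3.52% of all genes tested on that side; none reached it on the lower side, against 3.40% of all genes. In 13 genes (15.9%) the groups did not overlap, again all higher in stressed mice, against 6.14% of all genes; none was lower in every stressed mouse, against 6.57% of all genes. Subunit genes vary together across these mice, as given further on, so their shared direction does not count as 82 separate observations.

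**Figure D1:**
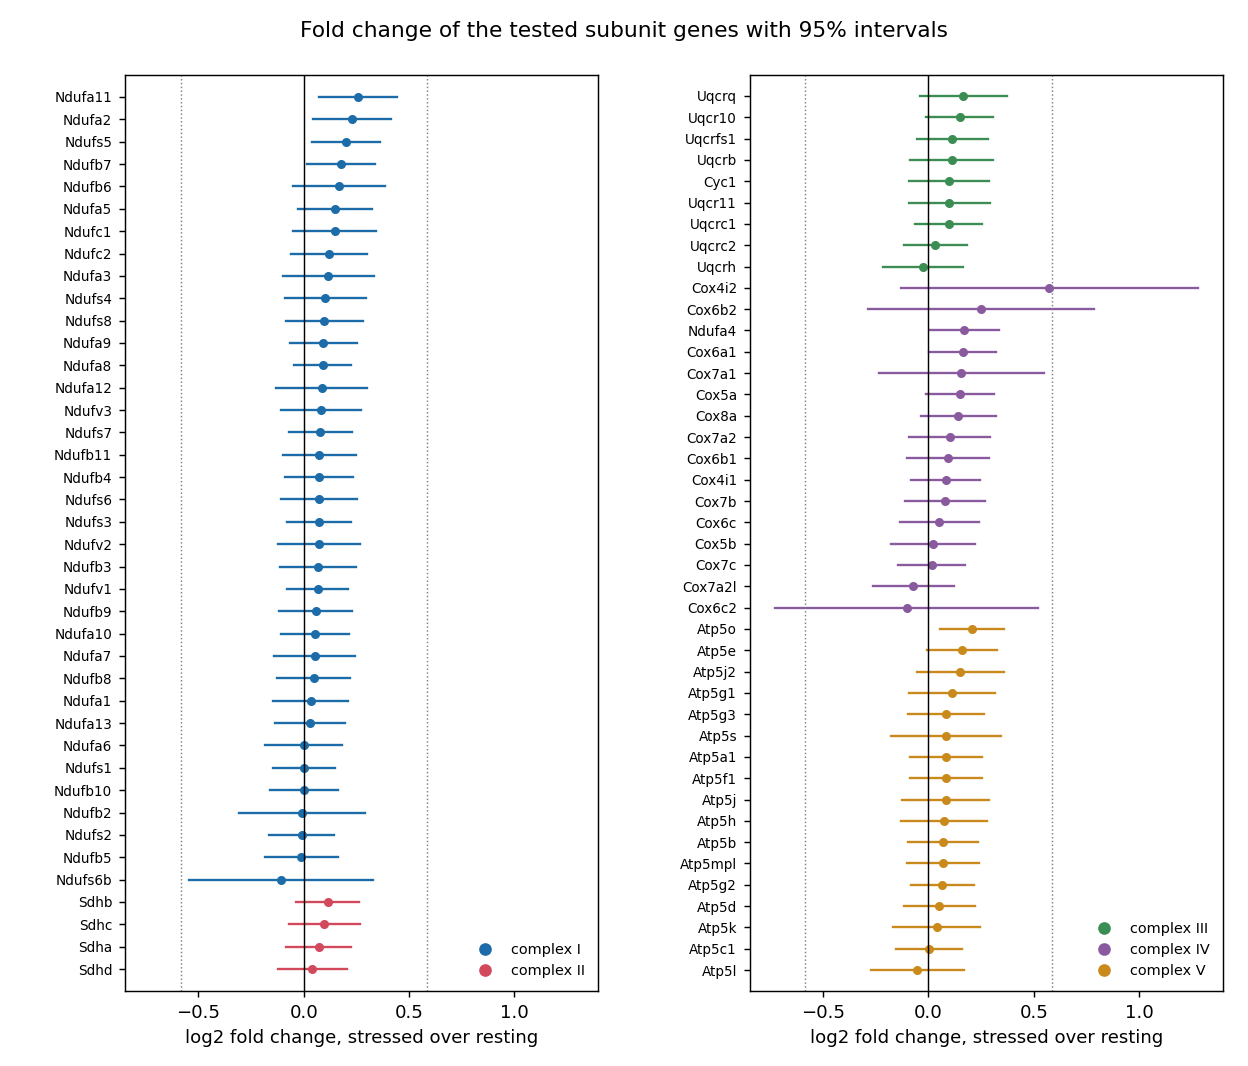
Log2 fold change (stressed over resting) of the 82 tested subunit genes on the horizontal axis, with points for the estimate and lines for its 95% interval from edgeR, ordered by value within each complex; dotted lines mark 1.5-fold. 73 points lie right of 0, and the intervals of Cox4i2, Cox6b2 and Cox6c2 are the 3 that reach 1.5-fold.

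The medians of the complexes lay close together. The median log2 fold change was 0.074 over the 36 tested genes of complex I, 0.085 over the 4 of complex II, 0.099 over the 9 of complex III, 0.096 over the 16 of complex IV and 0.081 over the 17 of complex V. Above 0 were 31 genes of complex I, 4 of complex II, 8 of complex III, 14 of complex IV and 16 of complex V. Summed over its members, complex I was at 3513, 3791 and 3403 CPM in stressed mice, against 3523, 3211 and 3467 CPM in resting mice. Complex V, the most abundant, was at 6531, 6954 and 6556 CPM in stressed mice, against 6491, 5939 and 6584 CPM in resting mice. In both sums mouse 11 was the highest and mouse 17 the lowest, and the other 4 mice lay between them with the groups mixed. The sum of all 87 genes was 17375 ± 794 CPM in stressed mice and 16465 ± 831 CPM in resting mice (n = 3 per group, ± SD), so that the difference of the means was close to 1 SD.

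The proportions of the complexes were nearly fixed. Complex I made up 20.3% to 20.7% of the summed CPM in stressed mice and 20.6% to 20.7% in resting mice, complex II 6.95% to 7.36% in stressed and 6.98% to 7.33% in resting mice, and complex III 13.7% to 13.8% in stressed and 13.6% to 13.9% in resting mice. Complex IV made up 19.5% to 20.5% in stressed mice and 19.4% to 20.3% in resting mice, and complex V 38.1% to 39.1% in stressed and 38.1% to 39.0% in resting mice. Per length of the principal transcript, the median level was higher with each step from complex I to complex V in each of the 6 mice, and over all mice the medians were 99.9, 184, 201, 284 and 305 CPM per kb. The spread within a complex was wider than these steps: tested complex I genes ran from 5.14 CPM per kb for Ndufb2 to 250.0 for Ndufb9, and complex V genes from 7.34 for Atp5s to 899.8 for Atp5b. Ndufb2 has a principal transcript of 2413 bases and overlaps 1 gene on its own strand and 2 on the other, so its level is uncertain. Atp5s encodes coupling factor B, a role kept apart from the other complex V genes, of which Atp5g1 was the lowest at 46.0.

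Many subunit genes share promoter elements for the factors NRF1, GABP (an ETS factor also called NRF2) and YY1, and the windows of 5 genes are shown here, 1 from each complex, each among the genes with the smallest p of its complex and each with no overlap between the groups. The sequences are from RefSeq on GRCm38.p6 and run 5′ to 3′ in the direction of the gene, from 250 bases before the RefSeq start to 50 bases after it. Capitals mark matches, on either strand, to the motif cores GCGCATG (NRF1) and CCGGAAG (ETS).
Ndufa11, chr17:56717512-56717811, plus strand: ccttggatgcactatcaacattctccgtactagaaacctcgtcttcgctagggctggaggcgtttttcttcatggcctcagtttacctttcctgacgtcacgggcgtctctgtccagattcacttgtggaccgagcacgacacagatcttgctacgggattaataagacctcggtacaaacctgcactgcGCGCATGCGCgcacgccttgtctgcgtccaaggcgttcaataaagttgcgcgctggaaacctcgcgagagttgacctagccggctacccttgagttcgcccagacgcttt
Sdhb, chr4:140961021-140961320, plus strand: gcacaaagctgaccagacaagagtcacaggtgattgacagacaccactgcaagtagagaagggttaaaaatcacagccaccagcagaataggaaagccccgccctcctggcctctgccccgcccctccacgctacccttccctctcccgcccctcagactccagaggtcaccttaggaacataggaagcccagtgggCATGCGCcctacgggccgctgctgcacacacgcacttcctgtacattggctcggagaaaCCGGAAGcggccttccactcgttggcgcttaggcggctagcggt
Uqcr10, chr11:4704295-4704594, minus strand: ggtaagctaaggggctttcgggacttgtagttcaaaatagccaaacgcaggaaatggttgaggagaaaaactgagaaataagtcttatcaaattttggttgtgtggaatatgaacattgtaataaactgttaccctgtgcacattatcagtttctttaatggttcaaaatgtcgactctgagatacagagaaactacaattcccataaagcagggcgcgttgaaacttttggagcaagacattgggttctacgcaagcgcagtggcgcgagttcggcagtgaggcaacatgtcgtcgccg
Cox6a1, chr5:115348909-115349208, minus strand: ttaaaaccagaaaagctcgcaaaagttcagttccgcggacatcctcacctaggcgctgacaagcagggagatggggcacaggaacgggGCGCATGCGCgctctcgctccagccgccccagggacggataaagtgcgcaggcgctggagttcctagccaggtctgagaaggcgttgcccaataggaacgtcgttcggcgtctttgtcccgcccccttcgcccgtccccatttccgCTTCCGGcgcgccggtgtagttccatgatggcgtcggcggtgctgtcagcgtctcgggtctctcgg
Atp5o, chr16:91931581-91931880, minus strand: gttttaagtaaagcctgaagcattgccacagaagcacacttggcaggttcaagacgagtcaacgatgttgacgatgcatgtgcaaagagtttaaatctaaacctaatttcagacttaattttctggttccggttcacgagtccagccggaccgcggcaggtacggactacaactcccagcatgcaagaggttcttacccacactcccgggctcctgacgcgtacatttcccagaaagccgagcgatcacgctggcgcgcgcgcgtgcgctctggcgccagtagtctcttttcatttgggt
Ndufa11 has an NRF1 core on each strand, which overlap in a single run of capitals that begins 60 bases before the start. Cox6a1 has the same arrangement from 162 bases before the start and an ETS core 16 bases before it, and Sdhb has an NRF1 core 53 bases before the start and an ETS core just past it. Uqcr10 and Atp5o hold none of these letters in the window, and their groups did not overlap either. In complex IV Ndufa4 had a smaller p than Cox6a1 (unadjusted edgeR p 0.0419 against 0.0457), but the window of Cox6a1 is shown. The window of Ndufa4 holds none of these letters, so the windows printed are not a fair sample for matches.

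Of the 87 genes 65 had a window in the RefSeq table. The NRF1 core was found in 13 of these (20.0%), against 4.41% of 27025 genes with a window of the same length, and the ETS core in 16 (24.6%), against 9.93%. The YY1 core AAGATGG was found in 10 (15.4%, against 7.28%), the core AAGGTCA of the oestrogen-related receptors in 8 (12.3%, against 5.38%) and CCAAT in 28 (43.1%, against 41.1%). Both strands were searched, a gene counted if any of its windows matched, and a palindromic NRF1 site counts once per gene. The comparison genes were all genes with a window and were not matched for expression, base content or number of windows. At least 1 of the NRF1, ETS and YY1 cores was present in 14 of 31 complex I genes with a window, 2 of 3 in complex II, 3 of 5 in complex III, 5 of 13 in complex IV and 7 of 13 in complex V. The share over all genes was not computed for these counts.

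Complex I, the NADH dehydrogenase, had the gene with the smallest p. Ndufa11 (ENSMUSG00000002379, chromosome 17 from 56717767 to 56722141 in mm10), an accessory subunit of the membrane arm, was at 76.0, 87.0 and 73.8 CPM in stressed mice, against 70.9, 62.0 and 65.3 CPM in resting mice. All 3 stressed mice lay above all 3 resting mice, and mice 11 and 17 were the extremes. The log2 fold change was 0.26 ± 0.08 (SE; 95% interval 0.072 to 0.44; edgeR adjusted p = 0.581, unadjusted 0.0112). Ndufa2, an accessory subunit of the peripheral arm, was at 65.9, 75.0 and 61.9 CPM in stressed mice, against 59.2, 54.4 and 59.4 CPM in resting mice. Its groups did not overlap either (log2 fold change 0.23 ± 0.08, adjusted p = 0.625). Without mouse 11 the log2 fold change of Ndufa2 was 0.15, and without mice 11 and 17 together it was 0.11 for Ndufa2 and 0.14 for Ndufa11. Both genes overlap a gene on the other strand, and the strand setting of the counting is unknown here, so their levels are uncertain to that extent.

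Among the other accessory genes of complex I, 3 were named after their values were seen because their groups did not overlap. Ndufs5 was at 57.6, 62.5 and 55.8 CPM in stressed mice, against 50.8, 48.6 and 53.7 CPM in resting mice (log2 fold change 0.20, edgeR adjusted p = 0.625). Ndufb7 was at 89.9, 99.3 and 91.4 CPM in stressed mice, against 85.7, 76.8 and 85.6 CPM in resting mice (0.18, adjusted p = 0.672). Ndufa8 was at 93.6, 94.2 and 90.8 CPM in stressed mice, against 88.4, 85.9 and 87.5 CPM in resting mice (0.09, adjusted p = 0.814). Of all 28 accessory genes 25 were above 0, with a median log2 fold change of 0.08.

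The 7 catalytic core genes of complex I, which carry the flavin and the iron-sulphur clusters, included none whose groups did not overlap. Their median log2 fold change was 0.072, with 6 above 0 and the highest at 0.099 (Ndufs8). Ndufs1, which encodes the largest of these proteins, was at 161, 152 and 155 CPM in stressed mice, against 155, 149 and 163 CPM in resting mice, and here mouse 11 was not the highest. The most abundant complex I gene per length, Ndufb9, was at 178, 194 and 167 CPM in stressed mice, against 178, 162 and 178 CPM in resting mice. Its groups overlapped (log2 fold change 0.058, adjusted p = 0.921). The lowest fold change in complex I belonged to Ndufs6b, annotated as a processed pseudogene, at 2.82, 3.48 and 3.22 CPM in stressed mice, against 3.82, 3.17 and 3.26 CPM in resting mice (-0.11 ± 0.20, adjusted p = 0.945). The other 2 annotated pseudogenes of complex I, Ndufa11b and Ndufb4c, had too few counts to test.

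Complex II, the succinate dehydrogenase, also works in the citrate cycle, and all 4 of its genes were above 0. The flavoprotein gene Sdha was at 509, 489 and 506 CPM in stressed mice, against 476, 453 and 502 CPM in resting mice (log2 fold change 0.071, adjusted p = 0.882). The iron-sulphur subunit gene Sdhb was at 232, 248 and 232 CPM in stressed mice, against 225, 212 and 220.4 CPM in resting mice (0.11 ± 0.07, adjusted p = 0.782). Its groups did not overlap, whereas mouse 19 reached the stressed values of Sdha. The membrane anchor Sdhc was at 218, 245 and 229 CPM in stressed mice, against 216, 202 and 227 CPM in resting mice (0.099, adjusted p = 0.841). The second anchor, Sdhd, was at 275, 288 and 268 CPM in stressed mice, against 271, 249.7 and 285 CPM in resting mice (0.042, adjusted p = 0.942). The 2 anchors were highest in mouse 11 and lowest in mouse 17, and their groups overlapped.

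In complex III, the cytochrome bc1 complex, the small accessory subunit Uqcr10 was at 199, 205 and 179 CPM in stressed mice, against 179, 172 and 176 CPM in resting mice. Mouse 13 and mouse 15 were level to 3 digits, with mouse 13 the higher, so the groups did not overlap by a narrow margin (log2 fold change 0.15 ± 0.07, adjusted p = 0.735). Uqcrq, another small accessory subunit, was at 176, 206 and 176 CPM in stressed mice, against 177, 147 and 173 CPM in resting mice (0.17 ± 0.09, adjusted p = 0.773). Mouse 11 held its highest value and mouse 17 its lowest, so leaving out both had to lower its log2 fold change, to 0.0041. Uqcrh, the acidic hinge protein and the most abundant complex III gene per length, was at 320.3, 359.6 and 289 CPM in stressed mice, against 342, 319.6 and 326 CPM in resting mice. It was the only complex III gene below 0 (-0.027, adjusted p = 0.971), and its highest and lowest values were both in stressed mice. Cyc1 (cytochrome c1) and Uqcrfs1 (the Rieske iron-sulphur protein), the catalytic pair, had log2 fold changes of 0.099 and 0.11.

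In complex IV, the cytochrome c oxidase, all 11 widely expressed subunit genes had a log2 fold change above 0, from 0.016 (Cox7c) to 0.17 (Ndufa4), although Cox7c and Cox5b came out below 0 (-0.016 and -0.011) when scaled by library totals. Ndufa4, first purified with complex I and later assigned to complex IV, was at 112, 121 and 105 CPM in stressed mice, against 104, 97.0 and 99.4 CPM in resting mice (0.17 ± 0.07, adjusted p = 0.694; 0.11 without mouse 11). Cox6a1 was at 392, 429 and 399 CPM in stressed mice, against 378, 347 and 365 CPM in resting mice (0.16 ± 0.07, adjusted p = 0.713). The groups of both did not overlap, and neither did those of Cox5a, named after its values were seen, at 162, 166 and 158 CPM in stressed mice, against 155, 134 and 149 CPM in resting mice. The most abundant complex IV gene per length was Cox4i1, at 676, 671 and 616 CPM in stressed mice, against 653, 594 and 609 CPM in resting mice (0.081, adjusted p = 0.873). The lowest fold change belonged to Cox6c2, an annotated processed pseudogene at 1.69, 2.83 and 1.76 CPM in stressed mice, against 1.79, 2.64 and 2.32 CPM in resting mice (-0.10 ± 0.28, adjusted p = 0.964).

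Several complex IV subunits have isoforms that other tissues prefer, such as heart and skeletal muscle (Cox6a2, Cox7a1, Cox8b), lung (Cox4i2) or testis (Cox6b2, Cox7b2, Cox8c). In colon the widely expressed form made up most of the CPM per kb of each family. Cox4i2, whose isoform is known for its role in oxygen sensing, made up 0.163% to 0.201% of Cox4 in stressed mice and 0.0945% to 0.159% in resting mice. The shares of the groups did not overlap, but by a narrow margin, since stressed mouse 13 had 16 counts and resting mouse 19 had 17. Cox4i2 itself was at 1.23, 1.31 and 0.971 CPM in stressed mice, against 0.597, 0.821 and 0.939 CPM in resting mice. At this low level the interval was wide (log2 fold change 0.57 ± 0.32, 95% interval -0.13 to 1.28, adjusted p = 0.764). Cox6b2 made up 1.49% to 1.97% of Cox6b in stressed mice and 1.13% to 1.96% in resting mice, at 4.25, 6.26 and 3.88 CPM in stressed mice, against 4.06, 4.98 and 3.09 CPM in resting mice (0.25 ± 0.24, adjusted p = 0.879). Single mice moved this value, to 0.01 without mouse 11, 0.38 without mouse 13, 0.43 without mouse 17 and 0.09 without mouse 19. Cox6b1 was at 313, 349 and 279 CPM in stressed mice, against 301, 279 and 303 CPM in resting mice (0.092, adjusted p = 0.878).

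The muscle isoform Cox7a1 was the best expressed of the minor complex IV forms, with 6.29% to 8.92% of the Cox7a family in stressed mice and 5.77% to 8.56% in resting mice. That family total includes Cox7a2l, the supercomplex factor, at 32.4% to 39.1%, beside Cox7a2 at 54.5% to 61.3%. The share of Cox7a1 beside Cox7a2 alone would be larger. Its levels were 14.2, 12.2 and 15.1 CPM in stressed mice, against 16.3, 11 and 10 CPM in resting mice, with resting mouse 15 the highest of all (0.16 ± 0.18, adjusted p = 0.907). Over fits without 1 mouse its log2 fold change ran from 0.023 (without mouse 19) to 0.40 (without mouse 15). Smooth muscle markers (8 genes such as Myh11 and Actg2; 6 higher and 2 lower, none past the threshold) summed to 3276 to 3787 CPM in stressed mice and 2862 to 3699 CPM in resting mice, and the highest of the 10 striated muscle markers were Ckm and Acta1. Ckm, muscle creatine kinase, was at 9.68, 11.8 and 9.04 CPM in stressed mice, against 10.6, 11 and 9.33 CPM in resting mice, and Acta1, skeletal muscle actin, at 10.2, 6.69 and 14.4 CPM in stressed mice, against 4.9, 3.4 and 8.62 CPM in resting mice (log2 fold change 0.88 ± 0.33, adjusted p = 0.646). Of the other 8, Myh1, Myh4 and Tnnc2 were at 0 in all 6 libraries, and the remaining genes had too few counts to test. Cox7a2 was at 184, 200.1 and 165 CPM in stressed mice, against 178, 157 and 177 CPM in resting mice (0.10, adjusted p = 0.864). Cox7a2l, a relative of these genes whose protein joins complexes III and IV into supercomplexes, had the most negative log2 fold change of the protein-coding members, at 175, 173 and 154 CPM in stressed mice, against 187, 184 and 157 CPM in resting mice. Its groups overlapped (-0.073 ± 0.09, adjusted p = 0.911), and mouse 17 stood 0.103 above the mean of the gene on the log2 scale.

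Cox6a2 was at 0, 0.0544 and 0.243 CPM in stressed mice, against 0.0597, 0.352 and 0 CPM in resting mice. Cox8b was at 0.615, 0.544 and 0.546 CPM in stressed mice, against 0.717, 0.235 and 0.331 CPM in resting mice, and Ndufa4l2, a hypoxia-induced relative of Ndufa4, at 0.154, 0.381 and 0.486 CPM in stressed mice, against 0.597, 0.704 and 0.331 CPM in resting mice. None of these 3 had enough counts to test, and 3 counts correspond to 0.151 to 0.183 CPM, which is also the limit that 0 counts allow for Cox7b2 and Cox8c, counting error only. Cox8a, the widely expressed partner of Cox8b, was at 364, 418 and 368 CPM in stressed mice, against 365, 327 and 349.6 CPM in resting mice (log2 fold change 0.14 ± 0.08, adjusted p = 0.773; 0.074 without mouse 11). Cox7b was at 298, 341 and 283 CPM in stressed mice, against 302, 272 and 301 CPM in resting mice (0.077, adjusted p = 0.901). In both genes mouse 11 stood above the other 5 mice and mouse 17 below them.

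In complex V, the ATP synthase, Atp5o (ENSMUSG00000022956, chromosome 16 from 91925214 to 91931687), which encodes the peripheral stalk subunit that ties the stalk to the catalytic head, had the smallest p. It was at 266, 289 and 282 CPM in stressed mice, against 248, 232 and 244 CPM in resting mice. The gap between the groups, from 248 to 266 CPM, did not rest on mouse 11 or 17, and without both the log2 fold change was 0.15. With all mice it was 0.21 ± 0.07 (95% interval 0.057 to 0.36; adjusted p = 0.582, unadjusted 0.0117). Atp5o overlaps 1 annotated gene on its own strand and 2 on the other, so its level is uncertain in the same way as those of Ndufa11 and Ndufa2. Atp5e, the epsilon subunit of the central stalk, was at 126, 141 and 127 CPM in stressed mice, against 124, 109.9 and 119 CPM in resting mice, also without overlap (0.16 ± 0.08, adjusted p = 0.735). Its log2 fold change was 0.10 without mouse 11 and 0.058 without mice 11 and 17. The catalytic beta subunit Atp5b, the most abundant member per length, was at 1730, 1773 and 1788 CPM in stressed mice, against 1684, 1583 and 1785 CPM in resting mice. Mouse 19 stood among the stressed mice there (0.067, adjusted p = 0.903).

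The c ring of complex V is built from 1 protein that 3 genes encode. Atp5g3 gave 71.4% to 73.9% of the c-ring CPM per kb over the 6 mice, Atp5g2 21.0% to 23.6% and Atp5g1 4.86% to 5.48%. The small share of Atp5g1 depends on its long principal transcript. Atp5g3 was at 469, 514 and 469 CPM in stressed mice, against 476, 414 and 479.9 CPM in resting mice (0.085, adjusted p = 0.878). Atp5g1 was at 116, 144 and 124 CPM in stressed mice, against 125, 108 and 123 CPM in resting mice (0.11, adjusted p = 0.857), and Atp5g2 at 115, 124 and 111 CPM in stressed mice, against 111, 111 and 111 CPM in resting mice (0.066, adjusted p = 0.885). Of these 3 genes Atp5g2 alone had level values in the resting mice, mouse 17 included. Atp5l, subunit g of the membrane part, was the only complex V gene below 0, at 161, 196 and 147 CPM in stressed mice, against 182, 166 and 176 CPM in resting mice (-0.054 ± 0.10, adjusted p = 0.945).

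The shared variation of the subunit genes followed single mice more than the groups. Relative to each gene's mean over the 6 mice, the median deviation of the 82 tested genes was 0.018, 0.144 and -0.015 on the log2 scale in stressed mice 10, 11 and 13, against 0.013, -0.128 and -0.018 in resting mice 15, 17 and 19. Mouse 11 held the highest value of 65 genes (79.3%; 17.6% of all genes tested) and mouse 17 the lowest of 57 (69.5%; 18.2% of all genes). Both were true of 47 genes, or 57.3%, against 4.85% of all genes. Over the 78 subunit genes with a mean of at least 10 CPM the first principal axis held 66.1% of the variance, with mouse 11 at one end (0.73) and mouse 17 at the other (-0.64), whereas over all 9860 genes at that level the first axis held 28.9%. The other 4 mice, 2 of each group, lay between -0.13 and 0.09 on the axis of the subunit genes. All 5 complexes followed the same pattern, with medians from 0.101 to 0.174 in mouse 11 and from -0.141 to -0.118 in mouse 17.

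**Figure D2:**
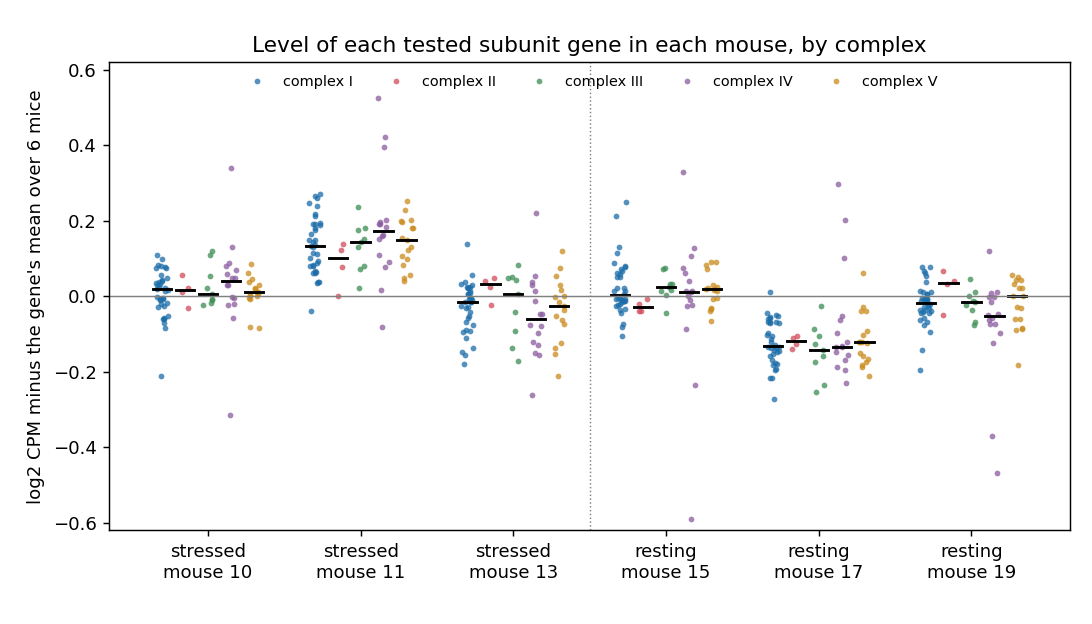
Deviation of each tested subunit gene from its own mean over the 6 mice (log2 CPM, vertical axis) in each mouse (horizontal axis, stressed left of the dotted line, resting right); points are genes coloured by complex and black bars the median of a complex. The bars of mouse 11 lie above 0 and those of mouse 17 below 0 in all 5 complexes, while those of the other 4 mice lie close to 0.

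Without mouse 11 the median log2 fold change of the subunits was 0.029, with 58 of 82 above 0, and without mouse 17 it was 0.039, with 64 above 0. Without both, an alternative chosen after seeing the data that leaves 2 mice a group, it was -0.0084, with 36 of 82 above 0. Mouse 11 stood highest and mouse 17 lowest over these genes, so leaving out both had to lower the median. With both left out the complexes had medians of -0.01 (I), 0.03 (II), 0.0041 (III), 0.0027 (IV) and -0.018 (V). Leaving out any 1 of the other 4 mice gave medians from 0.093 to 0.118. Without mouse 11 the median was 0.023 in complex I, 0.02 in complex IV and 0.02 in complex V, and without mouse 17 it was 0.033 in complex I, 0.045 in complex II, 0.053 in complexes III and IV and 0.03 in complex V. Without mouse 15 the median of complex I was 0.1146, and without mouse 13 that of complex IV was 0.1501. Scaling by library totals, which moved the median of all genes to -0.035, gave a median of 0.05 with 67 genes above 0; Ndufs1, Ndufa6, Ndufa13, Cox5b, Cox7c and Atp5c1 were the 6 that were then no longer above it. No subunit gene passed the threshold under any of these settings.

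**Figure D3:**
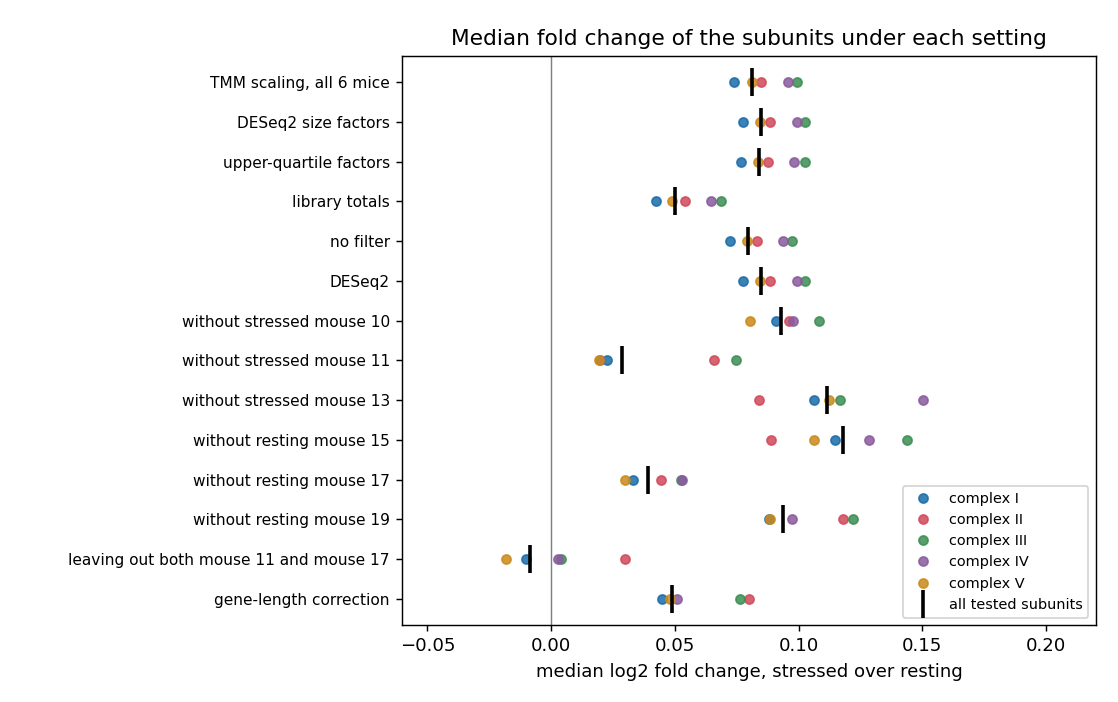
Median log2 fold change, stressed over resting, of the tested subunit genes of each complex (coloured points) and of all of them (black bars) on the horizontal axis, under each scaling, filter, test or set of mice (rows). The medians lie between -0.0182 and 0.0299 with both mouse 11 and mouse 17 left out.

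Subunit genes have short transcripts, with a median principal length of 772 bases, against 2757 bases for all genes tested, and in mouse 11 short genes in general were high. Coding genes of up to 800 bases that are not subunits (274 with a mean of at least 10 CPM) had a median deviation of 0.146 in mouse 11, near the 0.17 of the 38 subunit genes of that length. In mouse 17 the same other genes were at -0.053, against -0.128 for the subunits. For other genes of over 5000 bases the medians were -0.079 in mouse 11 and 0.023 in mouse 17. Subunit genes of over 1500 and up to 3000 bases (17 genes) still stood at -0.122 in mouse 17, where 3295 other genes of that length were at -0.015. A correction of each library for gene length, chosen after seeing the data, used the joined exons of a gene instead of the principal transcript. After it the median log2 fold change of the subunits was 0.049, with 68 above 0. Spearman's rho between principal length and log2 fold change was -0.14 over the subunit genes and -0.19 over 9607 coding genes, which share their libraries. The part of transcript length in the level of mouse 11 was not tested beyond these values.

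**Figure D4:**
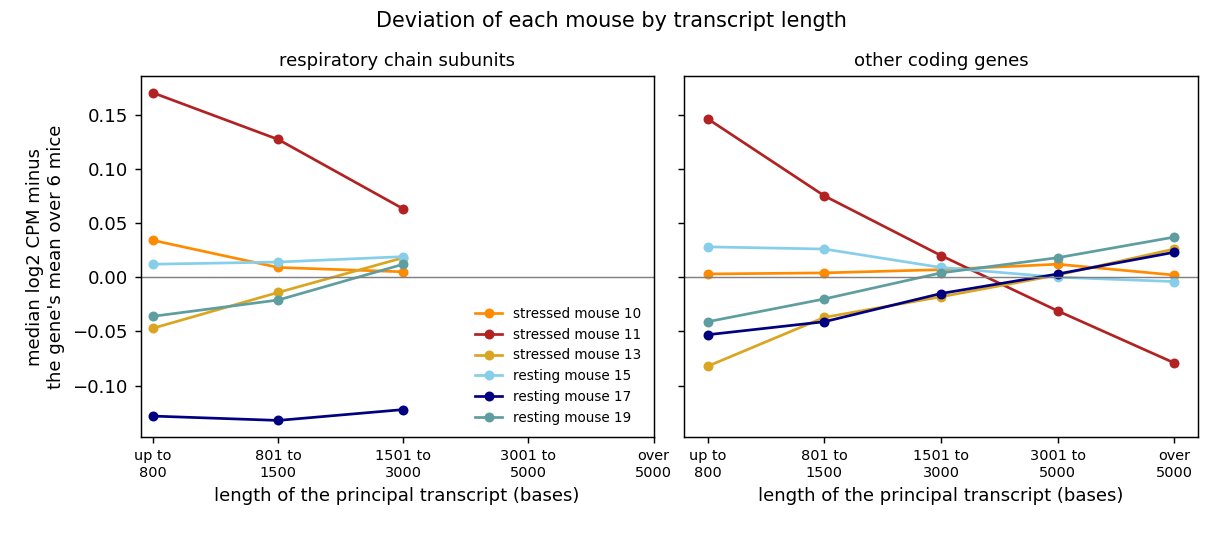
Median deviation from each gene's mean over the 6 mice (log2 CPM, vertical axis) by length of the principal transcript (horizontal axis, bases) for subunit genes (left) and other coding genes with a mean of at least 10 CPM (right), 1 line per mouse, stressed mice in warm and resting mice in cool colours. The line of mouse 11 starts at 0.17 for subunits and 0.146 for other genes and falls with length over the bins drawn, while that of mouse 17 stays between -0.132 and -0.122 for subunits; the subunit panel leaves out the bin of over 3000 and up to 5000 bases, which holds 1 gene (0.139 in mouse 11 and -0.14 in mouse 17).

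None of the genes listed as working with the subunits passed the threshold. Assembly factors had a median log2 fold change of 0.042, with 34 of 49 tested higher, 15 lower and none past the threshold. Acad9, a complex I assembly factor, was at 50.7, 51.8 and 48.6 CPM in stressed mice, against 40.1, 38.8 and 45.8 CPM in resting mice (0.28 ± 0.08, edgeR adjusted p = 0.495), and Uqcc2, a complex III assembly factor, had 0.26 (0.703). Of 14 genes for cytochrome c and coenzyme Q synthesis 9 were higher and 5 lower (median 0.023). Coq7, a hydroxylase of coenzyme Q synthesis, was at 28.5, 29.9 and 28.1 CPM in stressed mice, against 22.6, 20.4 and 25.5 CPM in resting mice (0.34 ± 0.10, adjusted p = 0.495), whereas Coq10a had -0.16 (0.805). Neither Acad9 nor Coq7 overlapped between the groups, and their stressed values lay closer together than the resting ones.

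Citrate cycle enzymes had 14 higher and 4 lower of 18 (median 0.066, none past the threshold). Pdha1, of pyruvate dehydrogenase, was at 239, 225 and 235 CPM in stressed mice, against 215, 212 and 210.5 CPM in resting mice (0.13 ± 0.06, adjusted p = 0.735). Summed citrate cycle genes were at 4045, 4012 and 4108 CPM in stressed mice, against 3919, 3668 and 3936 CPM in resting mice, with mouse 17 low but mouse 11 not high. Of 20 other inner membrane and matrix proteins 15 were higher and 5 lower (median 0.035), with Chchd10 at 0.11 and Immt at 0.081. Their sum was lowest in mouse 17 too, at 4548 CPM, against 4842 to 4949 CPM in stressed mice and 4871 to 4913 CPM in the other resting mice.

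Of 17 tested regulators of respiratory chain genes 8 were higher and 9 lower (median -0.017, none past the threshold). Hif1a, the hypoxia-inducible factor, was at 47.7, 48.9 and 51.5 CPM in stressed mice, against 62.0, 55.8 and 62.6 CPM in resting mice, without overlap (-0.29 ± 0.07, adjusted p = 0.458). The coactivator Pprc1 had -0.30 (0.719). Listed genes of the factors whose motif cores are given above were chosen for that reason and not by their values. Log2 fold changes were 0.06 for Nrf1, 0.011 for Gabpa and 0.189 for Gabpb1, both of GABP, and -0.049 for Yy1. Of the oestrogen-related receptors, Esrra (alpha) had 0.17 and Esrrg -0.347, at means of 0.937 CPM (stressed) and 1.19 CPM (resting). Esrrb had too few counts to test, and the list held no factor for the CCAAT core. Esrra was at 176, 163 and 172 CPM in stressed mice, against 154, 134 and 164 CPM in resting mice (adjusted p = 0.735), and mouse 11 had its lowest stressed value.

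Of the 13 mitochondrially encoded subunits 11 were higher and 2 lower (median 0.11), with mt-Nd6 at 0.21 (adjusted p = 0.625) and mt-Nd1 at 0.18 (0.671). The 7 of complex I summed to 18557, 17739 and 18044 CPM in stressed mice, against 15912, 16955 and 16289 CPM in resting mice, without overlap, and their ratio to the nuclear-encoded sum of complex I was 5.28, 4.68 and 5.3 in stressed mice, against 4.52, 5.28 and 4.7 in resting mice. The sums of the other complexes overlapped. The gene of complex III was at 9062, 8868 and 8198 CPM in stressed mice, against 8213, 8529 and 8244 CPM in resting mice, the 3 of complex IV at 42923, 43308 and 38926 CPM in stressed mice, against 38609, 42711 and 40140 CPM in resting mice, and the 2 of complex V at 436, 514 and 213 CPM in stressed mice, against 292, 415 and 339 CPM in resting mice. For complex IV the ratio was 12.4, 11.6 and 11.9 in stressed mice, against 11.2, 13.6 and 12.3 in resting mice. Within the resting group mouse 17 had the highest mitochondrial sum and the highest ratio for complexes I and IV. Levels within these sums were very uneven. In stressed and resting mice mt-Co1 averaged 40923 and 39885 CPM, mt-Co2 570 and 392 CPM, and mt-Co3 226 and 210.3 CPM. The means were 381 and 336 CPM for mt-Atp6, 6.48 and 12.8 CPM for mt-Atp8, and 6.82 and 7.43 CPM for mt-Nd3. The complex IV sum is therefore mostly mt-Co1. Why the other genes were so low was not tested, and the copy search below covered nuclear-encoded genes only.

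Markers of the cells in the tissue also differed between mice. Epithelial markers summed lowest in mouse 17 (19231 CPM), and fibroblast markers (6 tested, 1 higher and 5 lower) highest there, at 757 CPM, against 442 to 665 CPM in stressed mice and 500.2 to 556 CPM in the other resting mice. Adipocyte markers (8 of 8 higher) summed to 279 to 444 CPM in stressed mice and 255 to 363 CPM in resting mice and were highest in mouse 11; the brown fat gene Ucp1 was at no more than 0.0597 CPM. Sums were 9139 to 13057 CPM in stressed and 9666 to 11301 CPM in resting mice for goblet cell markers (6 of 7 higher), 362 to 441 CPM in stressed and 250.1 to 402 CPM in resting mice for dividing cell markers (6 of 6 higher), and 96.6 to 111 CPM in stressed and 82.5 to 95.9 CPM in resting mice for enteric neuron markers (7 of 7 higher). Immune markers (2 of 8 higher) summed to 428 to 1139 CPM in stressed and 677 to 701 CPM in resting mice. Red blood cell markers (4 of 4 tested higher) summed to 30.7 to 37.0 CPM in stressed and 7.9 to 23.8 CPM in resting mice, and striated muscle markers (2 tested, 1 higher) to 19.3 to 24.0 CPM in stressed and 14.9 to 18.8 CPM in resting mice. Brown fat markers (1 tested, higher) summed to 6.64 to 8.5 CPM in stressed and 4.93 to 7.51 CPM in resting mice. Markers of small intestine and Paneth cells (4 of 6 tested higher) summed to 530.5 to 677 CPM in stressed and 576 to 714 CPM in resting mice, most of it from Fabp2, with means of 509 CPM (stressed) and 579 CPM (resting). Of the rest, Sis averaged 56.8 CPM in the stressed group, against 27.9 CPM in the resting group (log2 fold change 1.02, adjusted p = 0.394), Rbp2 20.8 CPM, against 14.6 CPM in the resting group (0.52, 0.41) and Fabp6 10.1 CPM, against 5.08 CPM in the resting group (0.99, 0.495). Markers of colon position (1 of 3 higher) summed to 162 to 184 CPM in stressed and 173 to 189.8 CPM in resting mice. No marker in any of these lists passed the threshold, and their part in the levels of the subunit genes was not tested.

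Subunit genes have many processed copies in the genome. Of the 87 genes 18 had an annotated pseudogene transcript alike at 95% or more over at least 100 bases, 31 copies in all, and the counts given to these copies came to 1.1% to 1.23% of the counts of the subunit genes. The share was largest for Atp5g1 (25.6% of its own counts), Uqcr11 (17.8%), Ndufa12 (16%), Atp5l (13.9%), Atp5h (13.8%), Ndufs3 (13.5%) and Cox7c (12.9%), whose levels are uncertain. How reads that fit both a gene and its copy were counted is not known, so these shares do not bound the uncertainty. Of the genes with non-overlapping groups Atp5o had copies at 3.91% and Ndufs5 at 0.77%. By annotation 48 of the 87 genes overlapped no other gene.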

How the data were processed

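Colon RNA of 6 mice was sequenced after poly(A) selection with a kit that marks strand (RNA integrity number above 9), per the labels' protocols. The deposited table holds whole-number read counts per Ensembl gene; the tools listed in the submitters' processing notes are fastp and HISAT2, with mm10 as the build and no version. No read counter, gene annotation or strand setting is given in the sources used here. Genes that overlap, genes with near-identical copies and genes with an antisense partner are uncertain for that reason. Groups were taken from the sample titles, in which every library has its own mouse number, and each library was taken as 1 replicate.

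Symbols came from a table of Ensembl identifiers (42462 of 43432 matched), coordinates, overlaps and lengths from GENCODE M21 on mm10. Genes were kept by filterByExpr (minimum count 10, minimum total 15), which left 16119, and tested with the quasi-likelihood F test of edgeR 4.0.16 in R 4.3.3, two-sided, with TMM factors from 0.985 to 1.02 and Benjamini-Hochberg adjustment over all genes tested; an adjusted p under 0.05 was the threshold. Standard errors and 95% intervals come from that fit. Deviations are log2(CPM + 0.1) minus the gene's mean over the 6 mice. CPM per kb uses the principal transcript. Copies were sought with blastn 2.17.0 among 8578 pseudogene transcripts. Promoter windows are RefSeq's for GRCm38.p6.

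The subunit genes, the gene lists and the tests were chosen with earlier results of these data known. Genes were named by rule: in each complex the 2 with the smallest p, the one with the most negative log2 fold change and the one with the highest level per length, all of complex II, the isoform families whatever their values, and up to 2 genes of smallest p in each pathway list. A gene that this rule names is not reported here. Alternatives were DESeq2 1.42.0, its size factors, upper-quartile factors, library totals, no filter and leaving out each mouse; leaving out mice 11 and 17 together and the gene-length correction were added after seeing the data.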

Additional observations from a re-analysis of the deposited data

How the results depend on the processing

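No subunit gene passed the threshold under any alternative, and the direction of the median over the subunits held under each scaling, filter and test and without any single mouse, with medians from 0.0287 to 0.1179 and 58 to 78 genes above 0 over the 6 fits without 1 mouse. Without mice 11 and 17 together 36 of 82 genes were above 0. The medians were then -0.0084 (all), -0.01 (complex I), 0.0041 (complex III) and -0.0182 (complex V). Over these genes mouse 11 stood highest and mouse 17 lowest, so leaving out both had to shrink the difference. No conclusion is drawn from that fit. Without both, log2 fold changes turned to -0.0443 for Atp5g1, -0.0263 for Atp5g3, -0.0288 for Cox6b1, -0.028 for Cox7a2, -0.0511 for Cox7b, -0.047 for Ndufb9 and -0.0366 for Sdhd; that fit has 2 mice a group. Over the fits without 1 mouse, genes near 0 crossed it: Atp5l (-0.1786 to 0.032), Cox6c2 (-0.3857 to 0.0342), Cox7b (-0.0041 to 0.132), Ndufb9 (-0.0027 to 0.1075), Sdhd (-0.0082 to 0.092) and Uqcrh (-0.1116 to 0.0462). The count of changed genes over the whole table, 5, was 1 to 14 without 1 mouse, 151 without the filter and 56 with DESeq2; the cause was not tested. No paired analysis was possible because the groups share no mouse numbers. Standard errors were 0.32 for Cox4i2, 0.28 for Cox6c2 and 0.24 for Cox6b2, whose counts ran from 10 to 115 a library; counting error and the spread between mice were not separated.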

Other observations

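Within the complexes, groups of subunits by role were also set side by side. The 4 peripheral stalk genes of the ATP synthase, 4 of 4 above 0, had a median log2 fold change of 0.081, the 5 genes of its head and central stalk 0.067, the 3 c-ring genes 0.085 and the 4 small membrane subunits 0.053. The catalytic pair of complex III had 0.106 and its 7 core protein and accessory genes 0.099. Complex IV was more spread, with 0.092 over its 11 widely expressed genes, 0.25 over the 3 tested tissue-restricted isoforms, -0.073 for the supercomplex factor and -0.104 for the annotated pseudogene. No gene of these groups passed the threshold, and no difference between the groups was tested. With the annotated pseudogenes left out, 73 of 80 tested genes were above 0 and the median was 0.082.

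A second pattern across the subunit genes set mouse 13 apart. On the second principal axis of the 78 genes mouse 13 lay at -0.82 and the other 5 mice between -0.07 and 0.45. In mouse 13 the small subunits Atp5l, Uqcrh and Ndufa12 had their lowest values of all 6 mice, at 147, 289 and 63.7 CPM. They are examples picked from the 17 tested genes lowest in mouse 13 (20.7%), which is near the 18.3% of all genes. Atp5b was highest there, at 1788 CPM, but close to the 1785 CPM of mouse 19. Among other coding genes of up to 800 bases mouse 13 had the lowest median deviation of the 6 mice, at -0.082.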
